A study of Mus musculus with 5 samples.

Results

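The 10 genes described here encode the core of the Notch pathway: the receptors Notch1, Notch2, Notch3 and Notch4, the Delta-like ligands Dll1, Dll3 and Dll4, the Jagged ligands Jag1 and Jag2, and Rbpj. They were taken by name from 21853 protein-coding genes on chromosomes 1 to 19, X and Y. All Gfi1 and Lsd1 peaks that touched the gene body or 10 kb on either side were read. No measured value entered the rule that chose the genes, but earlier results of these data were known. None of the 10 genes lacked a promoter peak in all 4 peak lists, where 34.4% of all protein-coding genes did. A promoter peak in all 4 was found at 6 of the 10, near the 52.3% of all protein-coding genes that had one.

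MG tumors are a mouse model of medulloblastoma, a malignant tumor of the cerebellum. They arose from Prominin1+ neural stem cells of C57BL/6 cerebella at postnatal days 5 to 7, which received retroviruses for Myc (the T58A allele) and Gfi1 and were transplanted into immunodeficient NSG mice. From each of 2 such tumors, called 39 and 41, chromatin was precipitated once for Gfi1 (antibody GNE-CJS-2) and once for Lsd1, which gave 4 ChIP-seq libraries. The only input sample in the series is a pool of MGB tumors, made with Myc and Gfi1b in place of Gfi1, and it has no peak list.

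All 4 libraries therefore carry both retroviral genes, with Gfi1 driven by a viral promoter and not by its own. The series holds no MG tumor without Gfi1 and no normal neural stem cell, so the peaks show where each protein was found and not what Gfi1 changed. The tumors were bulk tissue from host mice, and a peak cannot be assigned to tumor or host cells. Tumor 39 is replicate 1 and tumor 41 is replicate 2 of each factor, and the same number marks the same tumor.

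Notch signalling passes between touching cells. A Delta-like or Jagged ligand on one cell binds a Notch receptor on its neighbor, the receptor is cut, and its intracellular domain enters the nucleus, where it joins the DNA-binding protein Rbpj and turns on genes such as Hes1. Without that domain Rbpj holds co-repressors at the same sites, and in the developing brain the pathway is known for keeping neural stem cells undifferentiated. Gfi1 is a zinc finger protein that represses transcription, and Lsd1 (also called Kdm1a) is a histone demethylase that it can bind.

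A peak was called a promoter peak when it came within 1000 bp of a transcription start site (TSS) of a protein-coding transcript of the gene. Its strength is given as the percentile of the deposited score among all peaks of the same list, so that 100 is the strongest peak. Many peaks share a score, and the 805 peaks at 3100 in the Gfi1 list of tumor 39 all have the percentile 98.6. The lists hold 36836 Gfi1 peaks for tumor 39 and 25078 for tumor 41, and 30367 and 33213 Lsd1 peaks. Read depth is not carried by the lists, so no counting error can be given per peak, and the range over the 2 tumors stands for the error. An exact permutation test of 2 libraries against 2 cannot go below p = 0.333, so no test between the factors was run.

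Promoter peaks were found at 10 of the 10 genes in the Gfi1 list of tumor 39, where 64.2% of all protein-coding genes had one. The Gfi1 list of tumor 41 had them at 6 genes, against 53.4% of all genes. Lsd1 promoter peaks were found at 9 genes in tumor 39, against 57.7%, and at 10 in tumor 41, against 60.9%. The 4 genes with no Gfi1 promoter peak in tumor 41 were Notch3, Notch4, Dll1 and Dll3.

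The 6 genes with a promoter peak in every list were Notch1, Notch2, Dll4, Jag1, Jag2 and Rbpj. Of all protein-coding genes, 34.4% had no promoter peak in any list. The values below concern how strong the peaks were. Without the Gfi1 library of tumor 41, which has the shortest list, 9 of the 10 genes had a promoter peak in all lists left.

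**Figure D1:**
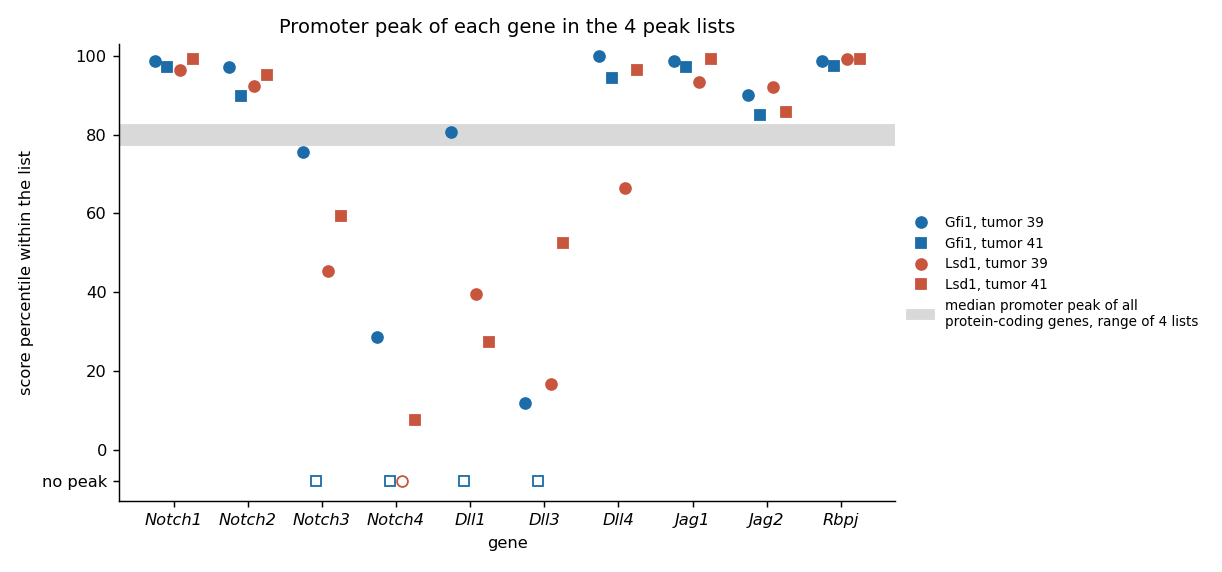
Score percentile of the promoter peak of each gene (y axis, percent of the list's peaks at or below it) in the 4 lists, with Gfi1 in blue and Lsd1 in red, circles for tumor 39 and squares for tumor 41. Open symbols mark lists with no promoter peak, and the gray band spans the 4 medians of all protein-coding promoter peaks, from 77.4 to 82.4. Notch1, Notch2, Jag1, Jag2 and Rbpj sit above the band in every list, Dll4 in 3, and Notch3, Notch4 and Dll3 sit below it wherever they have a peak.

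Notch1, on the minus strand at chr2:26457903-26516663, encodes a receptor active in neural stem cells. Its Gfi1 promoter peak had a percentile of 98.6 in tumor 39 and 97.3 in tumor 41. The Lsd1 peak had a percentile of 96.5 in tumor 39 and 99.2 in tumor 41. The values were high in all 4 lists and the ranges of the factors overlapped. These peaks were also among the widest of their lists. The Gfi1 peaks covered 9539 and 9131 bp, and the Lsd1 peaks covered 16902 and 13884 bp, which placed them between the width percentiles 99.6 and 99.9 of their lists. In all lists the peak lay over the TSS at position 26503822, which is 12841 bp inside the gene. The upstream TSS at 26516663 had a separate and weaker peak in 3 lists, with percentiles of 44.1 for Gfi1 in tumor 39 and of 39.99 and 46.8 for Lsd1, and none for Gfi1 in tumor 41.

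Beyond its promoter, Notch1 had 8 further sites, where a site is a run of touching peaks from any of the lists. Only 1 of them was present in all 4 lists. It lay in the 3′ part of the gene at chr2:26459220-26462729, held 2003 exonic bases and had percentiles of 51.4 and 17.8 for Gfi1 and of 20.1 and 49.6 for Lsd1. Each of these values was lower than at the promoter in the same list. The strong Lsd1 peak 3′ of Notch1 in tumor 39, at a percentile of 99.3, lay at the start sites of Sec16a and 0610009E02Rik and belongs to their promoters by position.

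Notch2, on the plus strand at chr3:98013527-98150361, had a promoter peak of 1968 to 2571 bp in every list. The Gfi1 percentiles were 97.0 in tumor 39 and 89.8 in tumor 41, and those of Lsd1 were 92.2 and 95.2. All 4 values exceeded the median of protein-coding promoter peaks of their list, and the factors overlapped. The stretch of 1968 bp that all 4 lists shared was as long as the narrowest peak, so the 4 peaks were nested around the TSS.

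The first intron of Notch2 held another site in all 4 lists, at chr3:98023644-98027663, which starts 10106 bp inside the gene. It contained no exonic base and no annotated TSS of another gene within 1000 bp. The Gfi1 percentiles were 72.4 and 85.1 and the Lsd1 percentiles 84.1 and 74.5, lower than at the Notch2 promoter in each list. All 4 lists shared 2840 bp of it. No other site in the windows of the 10 genes that was free of exons and of other genes' start sites was as strong in all 4 lists.

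Notch3, on the minus strand at chr17:32120820-32166852, had weaker promoter peaks. The Gfi1 percentile was 75.6 in tumor 39 with no peak in tumor 41, and the Lsd1 percentiles were 45.4 and 59.3. Each was below the median of its list's protein-coding promoter peaks. A site that ran from downstream of the gene into its 3′ end was present in all 4 lists, at chr17:32116013-32123226. Its strongest peak had percentiles of 68.2 and 62.0 for Gfi1 and of 78.6 and 74.0 for Lsd1. That peak touched the gene in Gfi1 of tumor 39 alone and lay wholly downstream in the other lists. The peaks that did touch the 3′ end had percentiles of 47.6 for Lsd1 in tumor 39 and of 19.8 and 35.2 in tumor 41. Gfi1 of tumor 41 had none there. The 3′ end thus ranked above the promoter in Lsd1 of tumor 39 and below it in Lsd1 of tumor 41. An internal site at chr17:32142181-32144879 was also shared by the 4 lists, with percentiles from 10.3 in Gfi1 of tumor 41 to 66.5 in Gfi1 of tumor 39.

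Notch4, on the plus strand at chr17:34564268-34588503, is a receptor best known from blood vessels and had the weakest promoter of the receptors. The Gfi1 percentile was 28.6 in tumor 39, the Lsd1 percentile was 7.54 in tumor 41, and the other lists had no promoter peak. By contrast its 3′ end lay under a strong site, chr17:34584060-34589305, with percentiles of 94.7 and 78.3 for Gfi1 and of 94.9 and 97.3 for Lsd1. That site was within 1000 bp of the start of the neighboring gene Gpsm3. It also held start sites of Notch4 transcripts not annotated as protein-coding, such as position 34585665, which lay under peaks of all 4 lists. The next site downstream, at the start sites of Gpsm3 and Pbx2, was as strong, with percentiles of 94.4, 82.3, 96.0 and 97.1 in the same order. Of the 10 Notch4 sites away from the TSS of its protein-coding transcripts, 6 were present in a single list.

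The promoters of Notch2, which had a peak in all 4 lists, and of Notch4, the weakest of the receptors, are shown for the contrast in their CpGs. They are RefSeq sequences of GRCm38 (mm10), 250 bases before to 50 after the start, written 5′ to 3′ on the coding strand with each CpG in capitals. The Notch2 promoter, at chr3:98013288-98013587 on the plus strand, had 41 CpGs and a GC content of 73%. The Notch4 promoter, at chr17:34564045-34564344 on the plus strand, had 5 CpGs and 58.3% GC. The centre of the intronic Notch2 site, 200 bases at chr3:98025099-98025298 on the plus strand, had 3 CpGs and 52% GC.
Notch2 promoter: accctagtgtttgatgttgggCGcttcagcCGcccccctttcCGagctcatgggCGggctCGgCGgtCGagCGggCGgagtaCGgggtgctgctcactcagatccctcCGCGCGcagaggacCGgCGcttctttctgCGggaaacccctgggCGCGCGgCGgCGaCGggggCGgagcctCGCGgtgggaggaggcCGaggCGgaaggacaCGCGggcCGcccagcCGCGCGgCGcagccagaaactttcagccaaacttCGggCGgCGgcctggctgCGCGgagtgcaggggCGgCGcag
Notch4 promoter: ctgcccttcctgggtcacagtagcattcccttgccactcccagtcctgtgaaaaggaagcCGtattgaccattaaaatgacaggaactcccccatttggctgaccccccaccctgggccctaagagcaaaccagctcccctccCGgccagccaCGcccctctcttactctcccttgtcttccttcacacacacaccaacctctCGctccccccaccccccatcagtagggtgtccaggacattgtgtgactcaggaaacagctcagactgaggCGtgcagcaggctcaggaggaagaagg
Notch2 intronic site: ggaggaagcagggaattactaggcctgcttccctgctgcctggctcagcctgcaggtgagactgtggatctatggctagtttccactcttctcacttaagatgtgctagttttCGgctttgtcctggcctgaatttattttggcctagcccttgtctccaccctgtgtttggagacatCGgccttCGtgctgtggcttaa
The CpGs fill the Notch2 promoter and are sparse in the other sequences, while the intronic site was in all 4 lists and the Notch4 promoter in 2.

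Dll4, on the plus strand at chr2:119325784-119335962, is the Delta-like ligand best known from vessel sprouting. Its Gfi1 promoter peak reached a percentile of 99.9 in tumor 39 and 94.3 in tumor 41. The Lsd1 percentiles were 66.4 in tumor 39 and 96.5 in tumor 41. Lsd1 in tumor 39 was thus the low value, and the difference, Gfi1 minus Lsd1, was 33.5 percentile points in tumor 39 and -2.16 in tumor 41. The peak of Lsd1 in tumor 39 was split: the promoter peak spanned 3187 bp and a second peak of 2319 bp, with a percentile of 39.5, lay upstream, whereas single peaks of 5543 to 7128 bp covered the region in the other lists. The promoter peak also overlapped the start of Gm14207, so the signal cannot be assigned to Dll4 alone.

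Dll1, on the minus strand at chr17:15367354-15376872, drives Notch signalling between neural progenitors. Its Gfi1 peak had a percentile of 80.8 in tumor 39. The Gfi1 list of tumor 41 had no peak of any kind in the whole Dll1 window. The Lsd1 percentiles were 39.6 and 27.4, below the median of protein-coding promoter peaks. The start of A930024N18Rik lies within 1000 bp of these peaks, so they too cannot be assigned to 1 gene.

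Dll3, on the minus strand at chr7:28293553-28302238, is a divergent ligand that acts inside the cell that makes it. Its Gfi1 promoter percentile was 11.8 in tumor 39, with no peak in tumor 41, and the Lsd1 percentiles were 16.8 and 52.5. Peaks inside the small gene were present in all lists. The site at chr7:28297836-28299660 had percentiles of 57.5 and 38.6 for Gfi1 and 48.6 and 60.1 for Lsd1. The site at chr7:28293622-28295392 had percentiles of 62.7 and 3.76 for Gfi1 and 53.9 and 62.3 for Lsd1. Both ranked above the Dll3 promoter in each of the 3 lists with a promoter peak. The strongest peaks near Dll3, with percentiles from 71.1 to 89.0, lay 8242 bp or more upstream at the start of Timm50.

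The Dll1 promoter is shown because it is one of 3 promoters here that hold the letters AATC, the core of the Gfi1 motif. Its RefSeq sequence is at chr17:15376883-15377182 on the minus strand, and AATC or its reverse complement GATT is in capitals.
Dll1 promoter: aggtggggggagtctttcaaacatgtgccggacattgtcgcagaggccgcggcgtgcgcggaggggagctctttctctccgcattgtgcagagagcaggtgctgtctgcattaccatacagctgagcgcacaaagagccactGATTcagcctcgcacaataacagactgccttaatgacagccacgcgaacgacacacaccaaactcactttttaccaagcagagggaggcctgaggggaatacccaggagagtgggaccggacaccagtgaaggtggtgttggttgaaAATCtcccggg
Of the 20118 RefSeq promoters of protein-coding genes, 70.7% held AATC on either strand, and 3 of the 10 described here did: Dll1 and Dll3 with 2 matches each, and Jag1 with 1. The extended letters AATCAC were found in Dll3 alone, against 9.68% of all promoters, and every AATCAC match also holds AATC. Of the 6 genes with a promoter peak in all lists, Jag1 was the one with a match. A match of letters is not a bound site, and the peaks were longer than these 300 bases. The Dll1 sequence shown lay inside the Gfi1 peak of tumor 39 alone, and the Lsd1 promoter peaks of Dll1 did not reach it.

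Jag1, on the minus strand at chr2:137081456-137116644, had the most sharply repeated peak. The Gfi1 percentiles were 98.6 and 97.2, and the Lsd1 percentiles were 93.5 and 99.2. The 4 peaks started within 311 bp of each other and ended within 207 bp, so the 4426 bp common to all lists made up 89.5% of their outer span, the highest share of the 10 genes. The promoter peak was also the sole peak in the Jag1 window in every list.

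Jag2, on the minus strand at chr12:112907819-112929776, had broad peaks over much of the gene, where those of Jag1 kept to the promoter. The promoter percentiles of Gfi1 were 90.0 and 84.8 and those of Lsd1 92.0 and 85.7, lower than those of Jag1 in each list. The strongest promoter peak was 9929 and 5872 bp wide for Gfi1, and 4738 and 10884 bp for Lsd1. Peaks covered 84.9% and 47.4% of the gene body for Gfi1 and 52.8% and 56.4% for Lsd1. These were the highest shares of the 10 genes in each list.

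The broad Jag2 peaks ended just inside the gene, and another, weaker peak began near the TSS at position 112929776. The break lasted 217 and 295 bp in the Gfi1 lists and 133 and 123 bp in the Lsd1 lists. All 4 breaks shared chr12:112929574-112929677, 104 bp that begin 99 bp downstream of this GENCODE TSS. The RefSeq start site, at 112929495, lies 281 bp further inside the gene, so the shared stretch is upstream of that start. A break under 500 bp at a TSS with a stretch common to all 4 lists was found at 50 protein-coding genes, or 0.229%. The shared stretch had a GC content of 86.5% with 22 CpGs, against 77.8% and 70.8% in the 500 bp on either side. Rbpj had such a break in 3 lists, of 93 and 142 bp for Gfi1 and 34 bp for Lsd1 in tumor 41, and the 34 bp common to them had 85.3% GC. The part of base composition in these breaks was not tested, and they were looked for after the peaks had been seen.

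**Figure D2:**
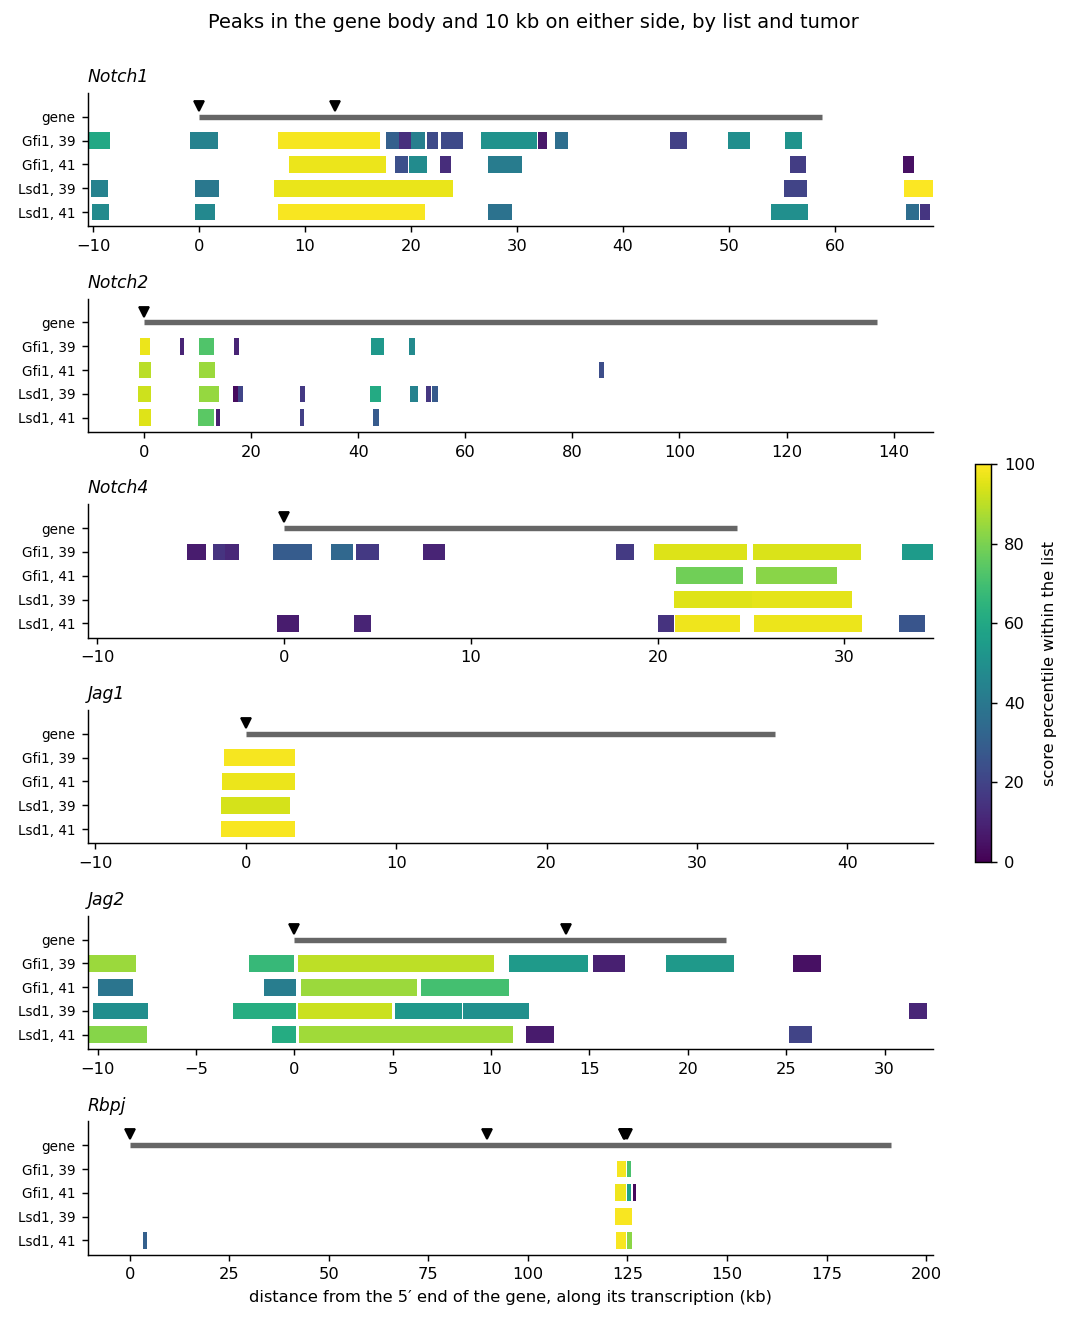
Peaks of the 4 lists in the windows of 6 genes, drawn against the distance from the 5′ end of the gene along its transcription (x axis, kb) and colored by score percentile. The gray line is the gene and triangles mark the start sites of protein-coding transcripts. Jag1 has a single strong block in every list, Notch1 and Jag2 have blocks several kb wide, Rbpj has its block 124062 bp from the 5′ end, and Notch4 is strong at its 3′ end.

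Rbpj, on the plus strand at chr5:53466152-53657362, is the DNA-binding protein of the pathway and had the highest mean percentile of the 10 genes, 98.6 over the 4 lists. Gfi1 had percentiles of 98.6 and 97.4 there, and Lsd1 had 99.2 in both tumors. Of all protein-coding promoter peaks in the same lists, 99.1%, 93.1%, 97.6% and 99.4% had a score at or below that of Rbpj. The peaks lay over the 4 start sites between positions 53590214 and 53590981, which are 124062 bp or more inside the gene. The start sites at the 5′ end of the gene record, at 53466152, and at 53555834 had no promoter peak in any list.

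The Rbpj promoter is shown because it alone among the 10 held TGGGAA, the core letters bound by the Rbpj protein, here on the opposite strand as TTCCCA. Its RefSeq sequence lies at chr5:53590236-53590535 on the plus strand, with the match in capitals.
Rbpj promoter: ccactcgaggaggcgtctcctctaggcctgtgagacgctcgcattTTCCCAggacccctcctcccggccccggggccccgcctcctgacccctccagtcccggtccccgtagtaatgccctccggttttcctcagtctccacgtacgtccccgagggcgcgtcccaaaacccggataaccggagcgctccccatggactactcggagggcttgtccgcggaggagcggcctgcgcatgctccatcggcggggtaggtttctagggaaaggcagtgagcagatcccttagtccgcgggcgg
TGGGAA on either strand was present in 24.3% of all RefSeq promoters.

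The order of the members can be read from the mean over the 2 tumors. For Gfi1 it ran from Rbpj (98.0 ± 0.834, SD, n = 2) through Notch1, Jag1, Dll4 and Notch2 to Jag2 (87.4 ± 3.67, SD, n = 2). Every neighboring pair in that order overlapped in range, although Dll4 ranked above Notch2 and Notch2 above Jag2 within each tumor. Jag2, from 84.8 to 90.0, nevertheless lay below the ranges of Rbpj, Notch1, Jag1 and Dll4, and Notch2, from 89.8 to 97.0, lay below those of Rbpj, Notch1 and Jag1. For Lsd1 it ran from Rbpj (99.2 ± 0.00740, SD, n = 2) through Notch1, Jag1, Notch2, Jag2 and Dll4 to Notch3 (52.3 ± 9.79), Dll3 (34.6 ± 25.3) and Dll1 (33.5 ± 8.64). Here the ranges of Notch2 and Jag2 did not overlap, and neither did those of Dll4 and Notch3. All other neighbors overlapped, although Jag1 ranked above Notch2 and Notch3 above Dll3 within each tumor. Rbpj, Notch1 and Jag1 shared the score of 3100 in Gfi1 of tumor 39 and in Lsd1 of tumor 41. The order of these genes thus rests on the other tumor for each factor, and the small Lsd1 SD of Rbpj includes a tied rank.

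By receptor and ligand class, 2 of the 4 receptors, 1 of the 3 Delta-like ligands, both Jagged ligands and Rbpj had a promoter peak in every list. A peak of tumor 39 was called high-confidence when it scored in its list's top 20% and peaks of tumor 41 that did so too covered 50% or more of it, which gave 4387 Gfi1 and 5181 Lsd1 peaks. Promoters of 6 genes held a high-confidence Gfi1 peak, where 22.6% of all protein-coding genes did. They were the 6 genes with a promoter peak in all lists. Promoters of 5 genes held a high-confidence Lsd1 peak, where 25.4% did, and the same 5 genes held both, where 19.1% did. Dll4 was the gene with Gfi1 alone, since its Lsd1 peak in tumor 39 was below the upper 20%. No test over the 10 genes was made.

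Gfi1 and Lsd1 promoter peaks shared at least 1 bp in both tumors at the same 6 genes, and at 52.2% of all protein-coding genes. At Jag1 the shared bases made up 93.4% of the Gfi1 and 96.6% of the Lsd1 peak in tumor 39, and 99.9% and 97.8% in tumor 41. At Notch1 they made up 96.0% and 61.0% in tumor 39, and 100% and 57.7% in tumor 41, so that the Lsd1 peaks reached beyond the Gfi1 peaks. At Notch4 the factors had no promoter peak in the same tumor. At Jag2 43.3% of the Gfi1 bases were shared in tumor 39 and 94.3% in tumor 41, so the wider factor there was Gfi1 in tumor 39 and Lsd1 in tumor 41.

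Over all windows, 59 and 30 Gfi1 peaks and 39 and 47 Lsd1 peaks were read in tumors 39 and 41. Promoter peaks made up 14 and 8 of the Gfi1 peaks and 11 and 15 of the Lsd1 peaks. Of the Gfi1 peaks, 62.7% in tumor 39 and 90% in tumor 41 overlapped an Lsd1 peak of the same tumor, against 69.0% and 88.9% of all Gfi1 peaks. Of the Lsd1 peaks, 89.7% and 51.1% overlapped Gfi1, against 77.0% and 62.6% of all Lsd1 peaks. In each tumor the shorter list had the higher share, for these genes as for the whole list.

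The peaks away from the 10 genes' own promoters, as set by protein-coding transcripts, formed 49 sites, of which 13 were in all 4 lists and 22 in a single list. A site in all 4 lists was present at 7 of the 10 genes, and at 34.2% of all protein-coding genes. The longer a window, the more sites it can hold, and these shares were not adjusted for length. Dll1, Jag1 and Rbpj had none. Of the 13 shared sites, 7 were more than 1000 bp from the start of any other gene: 2 each at Notch3 and Dll3 and 1 each at Notch1, Notch2 and Dll4. The Dll4 site lay 11333 bp from its TSS, downstream of the gene, with percentiles from 28.3 to 65.7.

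Peaks covered from 1.89% of the Rbpj gene body to 84.9% of that of Jag2 in the Gfi1 list of tumor 39, with a median of 21.5% over the 10 genes and of 3.08% over all protein-coding genes. In the Gfi1 list of tumor 41 the medians were 10.1% and 1.64%. In the Lsd1 lists they were 15.0% and 2.58% for tumor 39, and 24.4% and 2.78% for tumor 41. The medians of all genes include genes with no coverage. Any coverage was found at 67.4% and 57.1% of all protein-coding genes for Gfi1 in tumors 39 and 41, and at 61.2% and 64.1% for Lsd1. In every list 9 of the 10 genes were above the median of all genes, and the exception was Rbpj in 3 lists and Dll1 in Gfi1 of tumor 41. In the same Gfi1 list of tumor 39 the longest gene, Rbpj at 191211 bp, had the lowest share. The next longest, Notch2 at 136835 bp, had the next lowest share, 6.78%. In falling order of length, Notch1 (58761 bp) followed with 52.1%, Notch3 (46033 bp) with 17.8%, Jag1 (35189 bp) with 9.29% and Notch4 (24236 bp) with 43.1%. Then came Jag2 (21958 bp) with 84.9%, Dll4 (10179 bp) with 17.5%, Dll1 (9519 bp) with 25.2% and Dll3 (8686 bp) with 51.7%. The part of gene length was not tested.

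**Figure D3:**
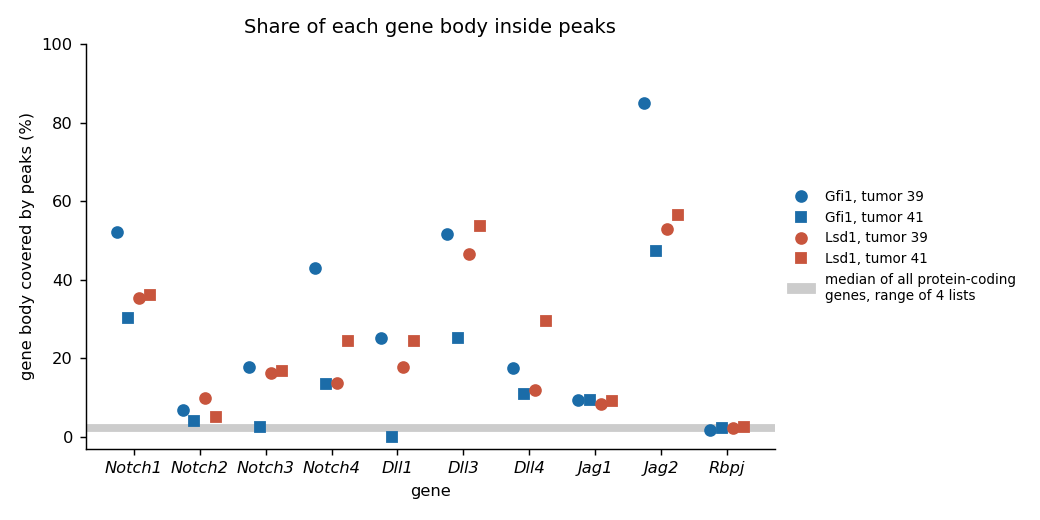
Share of each gene body inside peaks (y axis, percent) in the 4 lists, with Gfi1 in blue and Lsd1 in red, circles for tumor 39 and squares for tumor 41. The gray band spans the 4 medians of all protein-coding genes, from 1.64% to 3.08%. Jag2 is highest in each list, Jag1 lies between 8.41% and 9.29%, and Rbpj is at the band.

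The CpG content of the RefSeq promoters was compared by how many lists held a promoter peak. The 6 genes with a peak in all lists had 17 to 63 CpGs in 300 bases, with a median of 25.5. The other 4 genes had 5 to 25, with a median of 13, and Notch3 was the highest of them. The ranges overlapped, and the median of all RefSeq promoters was 14. Jag2 had the most CpGs and 86% GC, and the lowest mean percentile of the 6 genes. Its 300 bases, chr12:112929446-112929745, were taken around the RefSeq start site and span the break between the Jag2 peaks described above. The strongest Gfi1 promoter peak of tumor 41 did not reach them. A link between CpG count and peak strength was not tested.

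Of 57 other genes of the pathway, 48 (84.2%) had a promoter peak in all 4 lists, against 52.3% of all genes with no test made, and 8 had one in 1 to 3 lists. The 57 genes were listed with earlier results of these data known, so the shares given here cannot stand as separate support. High-confidence peaks were at 25 promoters for Gfi1 (43.9%), at 33 for Lsd1 (57.9%) and at 23 for both (40.4%). Of all protein-coding genes 22.6%, 25.4% and 19.1% had them, again with no test made. The enzymes that cut and mature the receptors, such as Adam10 and the presenilins, had a promoter peak in all lists at 10 of 10 genes, and both factors at high confidence at 8. The genes that Notch turns on had one in all lists at 5 of 5, and both factors at 3: Hes1, Hes5 and Hey1. The enzymes that add sugars to the receptors also had 5 of 5 in all lists, and both factors at 1, Poglut1. None of the 6 non-canonical ligands and regulators had both. The co-repressor group of 10 includes Kyat1, an aminotransferase that was listed in error. Without it the counts with both factors do not change, since Kyat1 had Gfi1 alone at high confidence. Kyat1 is counted among the 57 genes, the 48 with a peak in all lists and the 25 with Gfi1.

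The other pathway genes with the highest mean percentile and both factors at high confidence were the co-repressor subunits Sin3a and Ncor1, the co-activator Maml3, the target Hes1, the Notch inhibitor Numbl and the ubiquitin ligase subunit Fbxw7, which marks the receptor's intracellular domain for breakdown. Cntn1, a contactin described as a Notch ligand, was the single gene with no promoter peak in any list. Hes1, whose percentiles of 98.6, 97.5, 99.1 and 99.2 differed from those of Rbpj by at most 0.0560, was the most similar to Rbpj. In Gfi1 of tumor 39 and Lsd1 of tumor 41 both genes had the score of 3100 that 805 and 419 peaks share, so their likeness rests on the other 2 lists. Maml3, by at most 1.12, and Numbl, by at most 2.15, followed. The genes nearest to Jag2, the lowest of the 6, were Aph1a, a subunit of the receptor-cutting gamma-secretase, by at most 5.28, the inhibitor Numb by 5.78 and the co-activator Maml1 by 6.01. Likeness was taken over the 4 lists and says nothing of shared control.

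**Figure D4:**
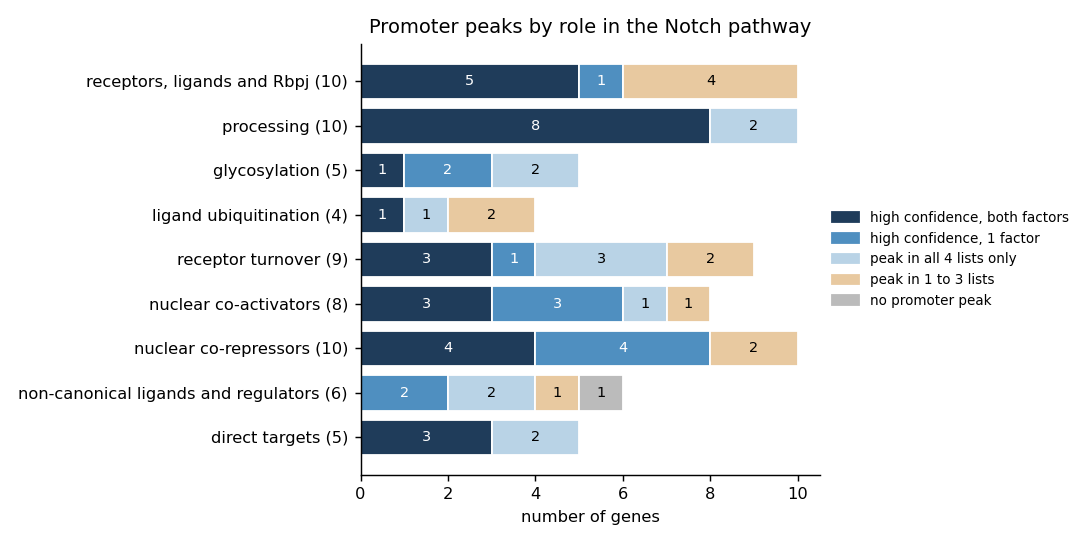
Number of genes (x axis) in each role of the Notch pathway by promoter peak class, from high-confidence peaks of both factors to no peak, with the number of genes per role in brackets. Of the 10 receptors, ligands and Rbpj, 5 have both factors at high confidence, 1 has 1 factor and 4 lack a peak in at least 1 list, while 8 of the 10 processing genes have both.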

How the data were processed

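Gfi1 and Lsd1 ChIP-seq peak lists of MG tumors 39 and 41 were analysed. Per the labels and the study's methods, the authors aligned reads to mm10 with BWA 0.6.2, called peaks in each library with MACS at default settings against input, and deposited positions with a score per peak. The definition of this deposited score is not given in the sources used here, so it was used only as a rank within a list. Mapped depth per library is not part of the lists, but the study's reporting summary gives it. For each factor the library with more mapped reads had the shorter list: tumor 41 for Gfi1 and tumor 39 for Lsd1.

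Genes and start sites came from GENCODE M21 for GRCm38, where the authors used M9. Peaks in the gene body and 10 kb on either side were read, and sites were merged from touching peaks. The study ranked peaks by enrichment for its high-confidence sets, and the score took its place. The sets here, of 4387 Gfi1 and 5181 Lsd1 peaks, are smaller than the peak sets the study reports and are not the same sets. Promoter sequences are from RefSeq (GRCm38), which matched all 10 genes and were checked base for base in the genome. Interval searches were tested on simulated data. The genes, lists and rules were chosen with earlier results of these data known. The 10 genes are all named, with the other pathway genes of highest mean percentile among those with both factors at high confidence, those with no promoter peak, and the 3 nearest to Rbpj and to Jag2. Alternatives varied the start sites, windows, score limits, overlap, pairing and libraries. Python 3.11.15, NumPy 2.4.6, SciPy 1.17.1, pysam 0.24.0 and samtools 1.23.1 were used.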

Additional observations from a re-analysis of the deposited data

How the results depend on the processing

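Over 9 counts and shares, 54 alternatives other than leaving out a library were run, and 51 stayed within 1.5 times a count or within 1 SD over the libraries. The number of genes with a high-confidence Lsd1 promoter peak was 5, but 3 when only the 5′ end of the gene record counted as a start site and 9 with no score cutoff. The strong Notch1 and Rbpj peaks lie at internal start sites, so the 5′ end alone also left 4 genes with a promoter peak in all lists and 4 with a high-confidence Gfi1 peak. With the start sites of all annotated transcripts, 8 genes had a promoter peak in all lists and 8 had overlapping factors in both tumors. A high-confidence Lsd1 peak was then at 6 genes, so the choice of start sites moved these counts in both directions. Peaks read per library averaged 43.8 ± 12.3 (SD, n = 4 libraries), and 30.8 in gene bodies alone.

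Leaving out each library in turn gave 6 to 9 genes with a promoter peak in all lists left, 6 to 7 with a high-confidence Gfi1 peak, 5 to 6 with a high-confidence Lsd1 peak, and 6 to 9 where the factors overlapped. Leaving out a library also gave 7 with a shared site away from promoters, 38.7 to 48.3 peaks per library, 62.7% to 90% of Gfi1 peaks overlapping Lsd1 (76.4% over both tumors), 15.5% to 20.3% median gene body covered (17.7% with all) and 48 to 53 other pathway genes. The 9 genes with a promoter peak came without Gfi1 of tumor 41, and the 9 with overlapping factors without either library of tumor 41. Equal list lengths, added after the data were seen, left 6 genes with a promoter peak in all lists. The factors were compared within each tumor, and no test with a replicate block was made because the results come from no test. The lists carry no read counts per peak, so an absent peak is not an absent protein.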
